A study of Mus musculus with 16 samples.

Results

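The question addressed here is whether THZ1 changed the same heart genes by the same amount in mice with and without pressure overload. For each gene, the drug effect after sham surgery (Sham-THZ1 minus Sham-Veh) was subtracted from the drug effect after transverse aortic constriction (TAC-THZ1 minus TAC-Veh), with group means taken on log2(normalized count + 1). This difference of drug effects is the interaction. It is 0 where THZ1 multiplied a transcript by the same factor after both surgeries, negative where the drug lowered it more (or raised it less) after TAC, and positive in the opposite case. All 16 libraries entered, and 13331 of the 22372 protein-coding genes reached a normalized count of 10 in at least 4 of them. The edge of this filter was thinly filled, with 107 genes at 10 or more in exactly 4 libraries and 110 genes left out with 3.

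All mice were of the strain C57BL/6J, were 10 to 12 weeks old when the experiment began, and had their chest opened under isoflurane. In TAC-Veh and TAC-THZ1 a suture narrowed the aortic arch, which was omitted in Sham-Veh and Sham-THZ1. From postoperative day 1 to day 60, THZ1 was injected into the peritoneum 2 times daily, each dose being 10 mg/kg, and the other mice of each surgery received vehicle. Each group held 4 mice, and a small piece of ventricle of each was sequenced with a stranded mRNA kit.

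THZ1 binds covalently to Cdk7, a kinase of the general transcription factor TFIIH, and also to Cdk12 and Cdk13, which phosphorylate the tail of RNA polymerase II during elongation. TAC makes the left ventricle pump against a raised pressure, and the myocardium answers with larger cardiomyocytes, a return of fetal genes, activated fibroblasts that lay down matrix, and lower transcripts of fatty acid oxidation and ion channels. A drug effect that exists only together with the stress appears as an interaction. A loss common to all transcripts cannot be seen in either surgery, since size factors remove it from normalized counts.

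The libraries held 21.4 to 35.8 M (mega) reads in protein-coding genes, recovered from the deposited values. The spread between hearts, as the SD of log2 values at the median gene, was larger in TAC-Veh (0.218) and TAC-THZ1 (0.141) than in Sham-Veh (0.098) and Sham-THZ1 (0.0916). The tissue label was checked by markers. The summed level of 21 sarcomere genes was 1086000 to 1934000 normalized counts, while Myl7, Sln and Bmp10 of 12 atrial genes did not reach the filter. The other 9, which include Nppa, summed to 21480 to 23980 over the sham hearts, 84570 to 239200 in TAC-Veh and 37450 to 65950 in TAC-THZ1. Tnnc1 of the sarcomere list also failed the filter, with no counts in any library. Whether failing the filter reflects the tissue or the counting was not tested. Among the TAC-Veh mice the matrix response was uneven, with replicate 3 and then replicate 4 showing the smallest rise in many genes, so that single libraries are given below for each gene on which a result turns.

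An interaction was called at an adjusted p under 0.05 in limma, with the method of Benjamini and Hochberg over the 13331 genes. The drug effect was more negative in TAC for 749 genes (5.62%) and more positive for 587 (4.40%). Both sets were centred on the TAC-Veh hearts. Of the 749 genes, 691 (92.3%) had their highest group mean in TAC-Veh, against 33.9% of all genes tested, and the other 58 had it in Sham-THZ1. Of the 587 genes, 552 (94.0%) had their lowest mean in TAC-Veh, against 36.2% of all genes. These shares describe the genes as chosen, since the same libraries gave the calls. The median interaction was -0.84 over the first set and 0.62 over the second, beside 0.02 over all genes. An absolute interaction of at least 1, which is a 2-fold departure from equal drug effects, was reached by 292 and 127 called genes. An absolute value of at least 2 was reached by 68 and 25. The counts depended on single hearts. Without TAC-Veh replicate 3 they were 1236 and 1243, and without TAC-THZ1 replicate 2 they were 444 and 246. They also fell by over 1.5 times, in 1 or both directions, without Sham-Veh replicate 2 (444 and 255), 3 (473 and 279) or 4 (528 and 331), without Sham-THZ1 replicate 1 (483 and 296), 2 (505 and 285), 3 (564 and 386) or 4 (472 and 281), and without TAC-Veh replicate 2 (501 and 351).

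The drug effects of TAC and of sham rest on different libraries, so genes chosen in one can be described in the other. THZ1 lowered 1899 genes (14.2%) in TAC and raised 2019 (15.1%) at an adjusted p under 0.05. In sham it raised 3 genes (0.0225%) and lowered 6 (0.045%). Both tests used a spread per gene that was shared by all groups. Since TAC hearts spread more than sham hearts, this made the test stricter in sham and looser in TAC. The counts of calls are therefore not on equal terms. The 1899 genes had a median drug effect of -0.53 in TAC and of -0.01 in sham, where it ranged from -0.02 to 0.00 over the 4 Sham-THZ1 libraries. For the 397 of them that fell by at least 1 on the log2 scale, the medians were -1.44 and -0.02. The 2019 genes that rose had medians of 0.42 in TAC and 0.03 in sham, and 61.8% of them had a drug effect above 0 in sham against 51.1% of all genes. Thus the drug effect of sham hearts gave little of the direction and almost none of the size seen in TAC hearts. At an unadjusted p under 0.05, 5443 of the 13331 genes passed in TAC and 917 in sham. Of these, 376 passed in both, 258 with the same direction and 118 with opposite directions. An overlap of about 376 is what these totals give if passing in TAC and passing in sham are unrelated. The size of the overlap takes no account of direction, and within it the same direction was the more frequent (258 against 118). Over the 13331 genes the correlation of the drug effects was 0.0995 (Pearson's r, taken across genes, and genes do not stand for replicates).

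**Figure D1:**
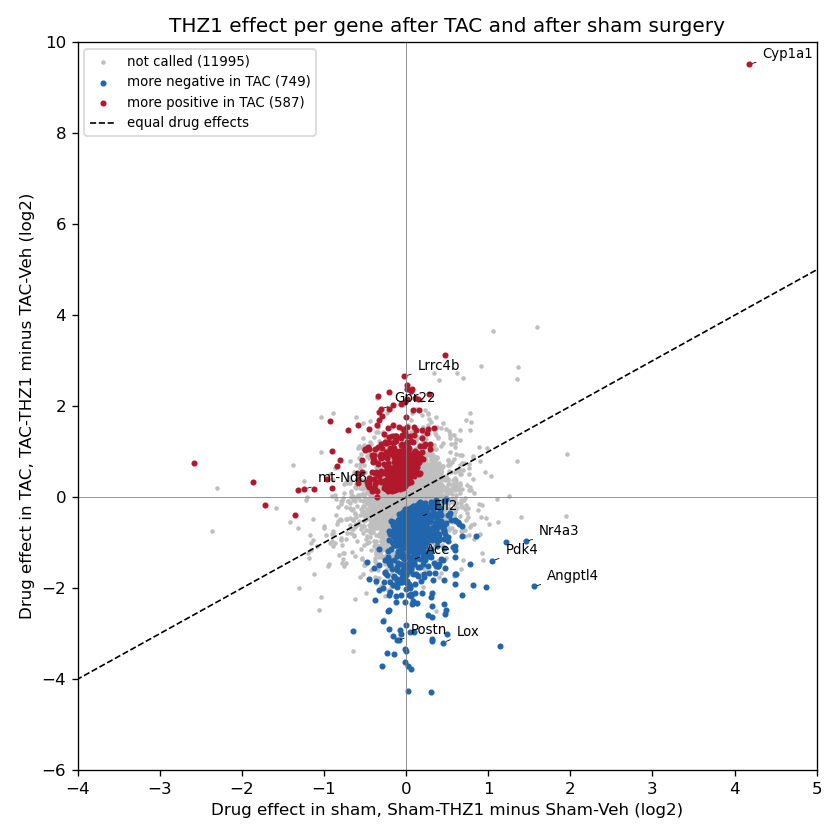
Each point is 1 of 13331 genes, with its drug effect in sham on the horizontal axis and in TAC on the vertical axis (both log2). Genes on the dashed line would have equal drug effects, blue points are the 749 genes with a more negative and red points the 587 with a more positive drug effect in TAC. Most called genes lie in a narrow band around a sham effect of 0 and spread along the vertical axis, with Cyp1a1, Nr4a3, Angptl4, Pdk4 and mt-Nd6 away from that band.

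The absence of a call has a measurable width. The 95% confidence interval of the interaction lay inside -0.5 to 0.5 for 5628 genes (42.2%) and inside -1 to 1 for 10356 (77.7%), with a median standard error of 0.157. At an unadjusted p under 0.05 there were 3618 genes (27.1%), called ones included.

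Called genes were described by their annotation, with no test. Median gene span was 30570 bases for genes with a more negative drug effect in TAC, 26740 for those with a more positive one and 23740 for all genes tested. Median exon length was 4153, 3346 and 3766 bases, and median transcript GC content 51.7%, 49.6% and 50.4%. Promoter letters were also compared, in RefSeq windows on GRCm38.p6 from 250 bases before to 50 after the transcription start, using the first window of each gene. Windows were found for 536 of the 749 and 394 of the 587 genes, and for 9499 of all genes tested. The letters TGANTCA, which the AP-1 proteins of the Fos and Jun families bind, stood on either strand in 6.72% of the windows of the first set, 4.57% of the second and 4.99% of the genes tested. TATAAA stood in 9.51%, 9.39% and 7.15%, GGAATG (the letters bound by TEAD factors) in 14.6%, 14.2% and 12.2%, TGACGTCA (a cAMP response element) in 1.87%, 2.79% and 3.19%, and the CArG box of serum response factor in 1.68%, 1.78% and 1.34%. Over all 32851 RefSeq windows the shares were 7.81% for TGANTCA, 13.6% for TATAAA, 14.7% for GGAATG, 1.79% for TGACGTCA and 1.63% for the CArG box. TGANTCA and TGACGTCA differ in length, and no match to one can be a match to the other, while TATAAA can lie inside a CArG box.

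The windows of 4 genes are printed for their place in the results. Ace had the smallest interaction p, and the estimated drug effects of Nr4a3, Ell2 and Srxn1 had opposite signs in sham and in TAC. They are credited to RefSeq, run 5′ to 3′ along the gene, and have the letters found by the search in capitals. In Ace these are TATAAA on the reverse strand, beginning 31 bases before the start, in Nr4a3 GGAATG on the reverse strand (195 bases before), in Ell2 TGACGTCA (198 bases before), and in Srxn1 TGANTCA at 2 places (102 and 45 bases before). A match describes letters in the window and not a bound site. Windows of Wnt9a and Grk5 are not printed, and Angptl4 had no entry.
Ace, chr11:105967698-105967997, + strand, GRCm38.p6: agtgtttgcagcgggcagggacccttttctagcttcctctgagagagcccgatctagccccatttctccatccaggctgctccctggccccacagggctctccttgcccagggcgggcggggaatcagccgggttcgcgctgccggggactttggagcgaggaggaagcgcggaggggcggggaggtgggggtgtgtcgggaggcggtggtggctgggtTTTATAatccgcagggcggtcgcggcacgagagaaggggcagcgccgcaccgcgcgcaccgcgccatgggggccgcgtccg
Nr4a3, chr4:48045055-48045354, + strand, GRCm38.p6: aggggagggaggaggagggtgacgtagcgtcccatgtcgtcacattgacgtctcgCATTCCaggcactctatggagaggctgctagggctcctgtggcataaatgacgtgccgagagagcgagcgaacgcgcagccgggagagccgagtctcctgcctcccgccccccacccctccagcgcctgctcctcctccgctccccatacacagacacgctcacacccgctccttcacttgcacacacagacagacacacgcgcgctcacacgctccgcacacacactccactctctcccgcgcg
Ell2, chr13:75707234-75707533, + strand, GRCm38.p6: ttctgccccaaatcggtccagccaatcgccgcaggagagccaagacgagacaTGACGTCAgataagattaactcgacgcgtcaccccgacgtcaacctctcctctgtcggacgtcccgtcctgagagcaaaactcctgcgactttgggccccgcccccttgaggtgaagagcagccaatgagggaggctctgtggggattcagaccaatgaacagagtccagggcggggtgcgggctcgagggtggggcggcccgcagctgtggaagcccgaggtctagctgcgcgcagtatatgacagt
Srxn1, chr2:152105274-152105573, + strand, GRCm38.p6: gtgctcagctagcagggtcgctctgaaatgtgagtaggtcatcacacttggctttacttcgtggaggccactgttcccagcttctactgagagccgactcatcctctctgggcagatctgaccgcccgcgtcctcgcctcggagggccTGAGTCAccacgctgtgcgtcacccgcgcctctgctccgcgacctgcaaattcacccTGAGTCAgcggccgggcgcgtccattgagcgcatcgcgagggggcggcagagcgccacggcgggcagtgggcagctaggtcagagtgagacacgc

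Among called genes with a mean of at least 100 counts, the extracellular matrix held most of the largest negative interactions, and some genes of lower level reached beyond them (to -4.60 for Tnmd, a tendon protein). Fibrillar and associated collagens were more negative in TAC for 14 of 17 genes tested, matrix proteins and cross-linking enzymes for 23 of 27, and matricellular proteins and CCN genes for 11 of 16, and no member of the 3 lists was more positive. Their median interactions were -1.49, -1.60 and -1.95. Of all genes 5.62% were called more negative and 4.40% more positive. In sham hearts the median drug effects of the same lists were 0.05, 0.06 and -0.09.

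Postn encodes periostin, a matrix protein made by activated fibroblasts. Its normalized counts were 1721, 1141, 1241 and 1289 in Sham-Veh, 1306, 1147, 1226 and 1270 in Sham-THZ1, 46490, 65870, 20160 and 20100 in TAC-Veh, and 3455, 2029, 6054 and 4704 in TAC-THZ1. The sham groups lay on each other, every TAC-Veh heart was above every TAC-THZ1 heart, and every TAC-THZ1 heart was above both sham groups. The interaction was -3.04 (SE 0.49, adjusted p = 0.00226), from a drug effect of -3.15 in TAC and -0.11 in sham. If THZ1 had acted on TAC hearts as it did on sham hearts, the TAC-THZ1 mean would have been 30980 on the log scale, and it was 3759.

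Lox, the enzyme that starts collagen cross-linking, had counts of 126, 114, 102 and 130 in Sham-Veh, 162, 172, 147 and 164 in Sham-THZ1, 3390, 4471, 573 and 894 in TAC-Veh, and 244, 148, 194 and 153 in TAC-THZ1. The TAC-THZ1 hearts overlapped Sham-THZ1, and the sham hearts were higher with the drug than without. The interaction of Lox was -3.65 (SE 0.64, adjusted p = 0.00389). Col12a1, a collagen that decorates fibrils, had the most negative interaction among called genes with a mean of at least 100 counts, at -3.75 (SE 0.58). Its counts were 31 to 37 in Sham-Veh, 30 to 39 in Sham-THZ1, 1450, 2069, 386 and 627 in TAC-Veh, and 64, 37, 131 and 73 in TAC-THZ1, so that a gene of low level in sham hearts reached at most 131 counts in a treated TAC heart.

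Other genes of the same shape were Cilp (-2.85), Comp (-3.20) and Thbs4 (-3.06), matricellular proteins of cartilage and tendon, Fmod (-3.33), a collagen-binding proteoglycan, and Ltbp2 (-3.06), which binds fibrillin. Thbs1, an activator of latent TGF-beta, reached -2.96, Mfap4 -2.42, and Adamtsl2, which acts in the microfibrils around fibrillin, -2.24. The network-forming collagens Col8a1 and Col8a2 were at -2.29 and -3.49. Among these 10 genes the drug effect in sham was farthest from 0 in Col8a2, at 0.32. For Ctgf, a CCN growth factor of scar tissue, counts in TAC-Veh were 29950, 22370, 6875 and 8612 and in TAC-THZ1 2526, 2556, 2496 and 4159, and the interaction was -2.18 (SE 0.48, adjusted p = 0.0122).

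Matrix genes differed in where TAC-THZ1 ended relative to sham hearts on the same drug. TAC against sham under THZ1 called 1514 genes higher (11.4%) and 1706 lower (12.8%). Among the 17 collagens, 8 were called lower in TAC-THZ1 than in Sham-THZ1 and 1 higher. Among the 16 matricellular and CCN genes the order was reversed, with 1 lower and 6 higher, and the 27 matrix and cross-linking genes held 3 lower and 8 higher. Under vehicle, where 21.4% of genes rose with TAC and 23.6% fell, the corresponding counts were 15 higher and 0 lower, 14 and 1, and 24 and 1.

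Col4a1, a chain of the basement membrane collagen, shows the first behaviour. Its counts were 11790, 9405, 8735 and 12540 in Sham-Veh, 12410, 12260, 12220 and 15350 in Sham-THZ1, 15980, 18560, 9537 and 19710 in TAC-Veh, and 6129, 6358, 5720 and 6639 in TAC-THZ1. All 4 TAC-THZ1 hearts were below every heart of the other groups, and the interaction was -1.62 (SE 0.25, adjusted p = 0.00225), with a TAC effect of 0.55 under vehicle and -1.07 under THZ1.

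Col1a1, the main chain of type I collagen, behaved likewise, with 1673, 1309, 1401 and 1768 in Sham-Veh, 1735, 1885, 1615 and 1877 in Sham-THZ1, 2604, 5596, 1914 and 4268 in TAC-Veh, and 893, 866, 1199 and 973 in TAC-THZ1. Again no treated TAC heart reached the lowest sham heart. The interaction was -1.98 (SE 0.33, adjusted p = 0.00309). Fbn1, the fibrillin of elastic microfibrils, had TAC effects of 1.56 under vehicle and -0.63 under THZ1, and Loxl2, a collagen cross-linking oxidase, 1.70 and -0.59. Col1a2 and Sparc, a collagen-binding protein, returned close to sham, with TAC effects under THZ1 of -0.13 and -0.22. Postn, Cilp, Comp and Thbs4 remained above sham by 1.60, 1.73, 2.30 and 2.23.

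**Figure D2:**
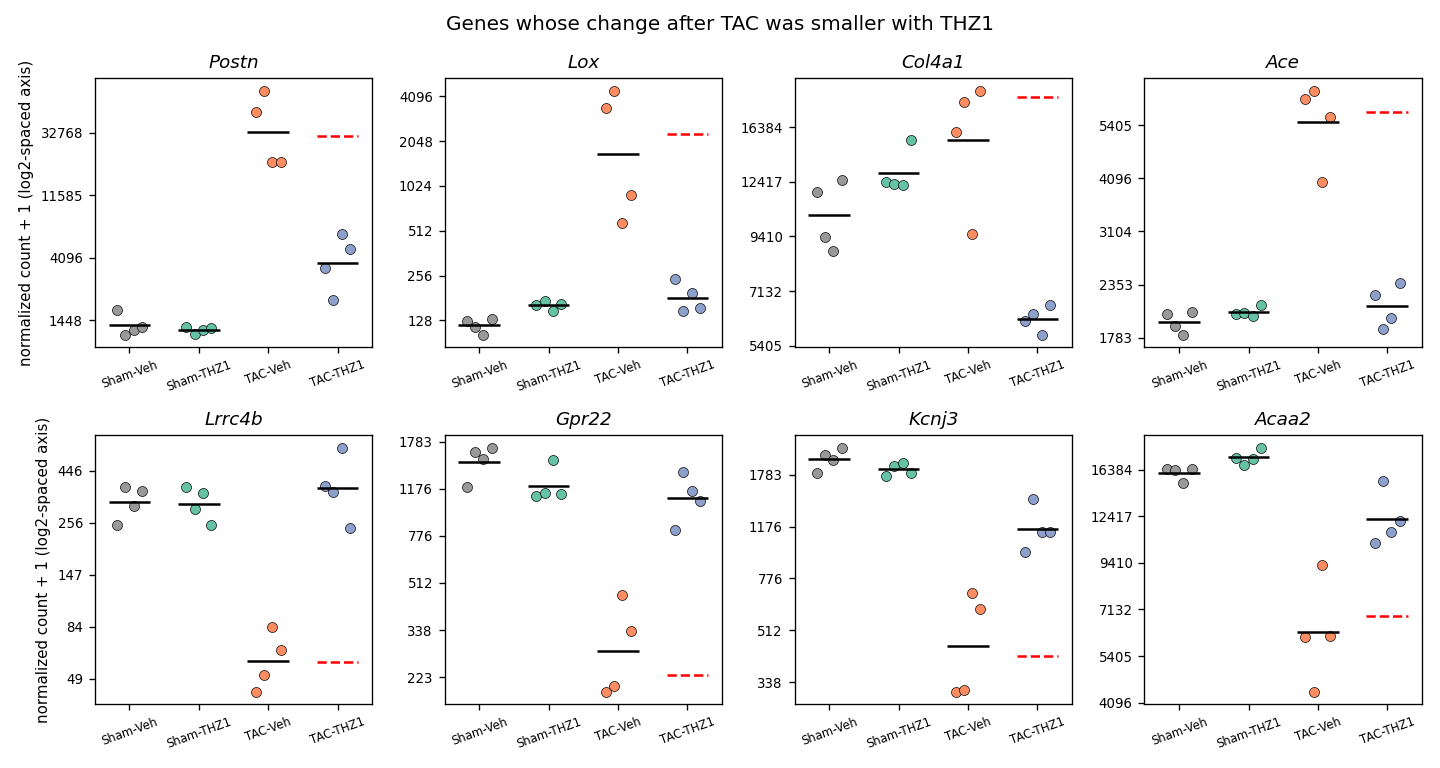
Normalized count + 1 of 8 genes in each of the 16 hearts on a log2-spaced axis, with the mean on the log scale as a black bar and, over TAC-THZ1, a red dashed bar at the level expected from equal drug effects in both surgeries. In the upper row TAC-THZ1 lies below the dashed bar, for Col4a1 also below all sham hearts, and in the lower row it lies above.

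Upstream of the matrix, 11 of 25 genes of TGF-beta signalling were more negative in TAC and none was more positive. The shares of all genes were 5.62% and 4.40%. The median of the list was -0.56. Its count of more negative genes ranged from 8 to 17 when 1 library was left out, with 17 without TAC-Veh replicate 3. The ligands Tgfb2 and Tgfb3 had interactions of -1.32 (SE 0.23) and -1.18 (SE 0.19). Tgfb2 measured 1002, 1655, 806 and 955 in TAC-Veh against 392, 345, 458 and 491 in TAC-THZ1, and 260 to 297 over all sham hearts. Gdf15, a circulating stress cytokine of the same superfamily, reached -3.38 (SE 0.56), from 168 to 652 in TAC-Veh to 20 to 46 in TAC-THZ1, beside 9 to 32 in sham hearts. Ltbp4, which stores latent TGF-beta in the matrix, was at -1.12.

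The list of myofibroblast markers, which shares Postn, Cilp and other members with the matrix lists, was more negative for 8 of 12 genes. That of resting and general fibroblast markers was more negative for 5 of 14. The medians were -2.31 and -0.29. Of all genes 5.62% were called more negative. The 5 fibroblast genes were Pi16 and Col1a1, Col1a2, Mfap5 and Dcn, of which all but Pi16 are also in the collagen or matrix lists. Uncalled members included Acta2 (-0.39) and Fap (-0.06) of the myofibroblast list, and Pdgfra (-0.27) and Tcf21 (-0.09) of the fibroblast list. Summed levels of the myofibroblast markers were 4304 to 5780 in Sham-Veh, 4736 to 5695 in Sham-THZ1, 33300 to 102300 in TAC-Veh and 5202 to 12760 in TAC-THZ1. Since RNA came from whole tissue, fewer cells of a type and less of its RNA per cell cannot be told apart for this or any other gene. Cell cycle genes, which few cells of the adult heart express, were more negative for 5 of 22 genes, beside the same 5.62%. Mki67, a marker of dividing cells, had 132 to 153 counts in Sham-Veh, 88 to 214 in Sham-THZ1, 158 to 330 in TAC-Veh, and 43, 60, 76 and 91 in TAC-THZ1, with an interaction of -1.59 (SE 0.37, adjusted p = 0.0163). Birc5, Ccna2 and Cdc20, which act in mitosis, were at -1.36, -1.52 and -1.57. The loci of Ccna2 and Cdc20 overlap Exosc9 and Elovl1 on the opposite strand, which were 7.36 and 12.9 times as abundant. The list count was 3 without Sham-Veh replicate 3, Sham-THZ1 replicate 1, Sham-THZ1 replicate 4 or TAC-Veh replicate 2.

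Ace, the angiotensin-converting enzyme, had the smallest interaction p of all genes. Its counts were 2022, 1891, 1811 and 2038 in Sham-Veh, 2016, 2028, 1998 and 2119 in Sham-THZ1, 6208, 6472, 4011 and 5644 in TAC-Veh, and 2225, 1870, 1978 and 2366 in TAC-THZ1. The sham groups and TAC-THZ1 shared 1 range, and the lowest TAC-Veh heart was above all of them. The interaction was -1.46 (SE 0.16, adjusted p = 0.00127). The gene lies on chromosome 11 at 105829259-105851278 (NCBIM37, the mm9 build). Of 12 genes of the renin-angiotensin system, Ace was called more negative and Agtr1a, the main receptor for angiotensin II, more positive, beside 5.62% and 4.40% of all genes. Without TAC-Veh replicate 3 these counts were 4 and 3, and without TAC-Veh replicate 4 the positive count was 3. Agtr1a fell after TAC to 433, 308, 489 and 483 and was 738, 909, 821 and 802 in TAC-THZ1, beside 732 to 1093 in Sham-Veh and 812 to 907 in Sham-THZ1. Its interaction was 1.10 (SE 0.19, adjusted p = 0.00383).

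Stress genes of the cardiomyocyte gave a mixed account. Of 20 tested, 9 were more negative and 1 was more positive, beside 5.62% and 4.40% of all genes, with a median of -0.77. TAC called 16 of the 20 higher under vehicle, beside 21.4% of all genes, and 13 of the 20 higher under THZ1, beside 11.4%. Rcan1, an inhibitor of calcineurin that calcineurin itself induces, had 6522, 10070, 6637 and 7216 in TAC-Veh and 3131, 2032, 3868 and 2746 in TAC-THZ1, against 1189 to 1630 over the sham hearts, for an interaction of -1.61 (SE 0.22, adjusted p = 0.00194). Xirp2, an actin-binding protein of the intercalated disc, and Fhl1, a sensor of stretch at the sarcomere, were at -1.19 and -1.44, and the small heat shock protein gene Hspb1 at -0.72. Acta1, the skeletal actin of the fetal programme, was at -1.33 (SE 0.33), and its TAC effect was 4.38 under vehicle and still 3.04 under THZ1.

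The natriuretic peptides and the myosin heavy chains did not pass the limma test. Nppa counts were 199800, 112700, 54190 and 49210 in TAC-Veh and 35180, 12870, 42630 and 19260 in TAC-THZ1. No treated heart reached the lowest TAC-Veh heart, but the spread within each group was wide, and the interaction was -1.75 (95% confidence interval -2.93 to -0.57, adjusted p = 0.0561). Nppb was at -0.43 (-1.05 to 0.18), with drug effects of -0.87 in TAC and -0.44 in sham. Myh7, the slow myosin that rises in stressed rodent hearts, was at -1.05 (-2.45 to 0.35), with 16760 to 75100 in TAC-Veh and 8845 to 49780 in TAC-THZ1, and Myh6 at 0.47 (-0.10 to 1.03). A 2-fold difference lay inside the intervals of Nppa, Nppb, Myh7 and Myh6. Nppa passed the threshold without TAC-Veh replicate 3 (-1.98), TAC-Veh replicate 4 (-2.03) or TAC-THZ1 replicate 3 (-2.01), and also in DESeq2 (-1.82), with weights per library (-1.66) or per group, with the replicate block, and without TAC-Veh replicate 3 and TAC-THZ1 replicate 2 together (-1.67), but not in edgeR (-1.81).

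Outside these lists, the genes with the smallest p included Gab2, an adaptor of receptor tyrosine kinases, at -1.10 (SE 0.14), and Uck2, a kinase of pyrimidine salvage, at -1.64 (SE 0.22). Uck2 measured 2702, 3308, 1954 and 1904 in TAC-Veh and 858, 634, 814 and 935 in TAC-THZ1, and 404 to 535 over the sham hearts. Gab2 was at 744 to 812 in TAC-THZ1 and 727 to 859 over the sham hearts, against 1244 to 1941 in TAC-Veh.

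A different shape was seen where THZ1 raised a gene in sham hearts and lowered it in TAC hearts. Nr4a3, an orphan nuclear receptor and immediate early gene, had 85, 71, 103 and 92 counts in Sham-Veh, 253, 258, 223 and 229 in Sham-THZ1, 392, 177, 250 and 250 in TAC-Veh, and 193, 111, 127 and 105 in TAC-THZ1. In sham the drug groups did not overlap, with every treated heart higher. In TAC all but 1 treated heart were below the lowest vehicle heart. The interaction was -2.43 (SE 0.30, adjusted p = 0.00177), from drug effects of 1.46 in sham and -0.97 in TAC. Equal drug effects would have given 705 counts in TAC-THZ1, and 130 were observed.

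Angptl4, which encodes a secreted inhibitor of lipoprotein lipase, had 140, 92, 54 and 124 in Sham-Veh, 205, 300, 226 and 481 in Sham-THZ1, 421, 197, 168 and 112 in TAC-Veh, and 72, 47, 30 and 62 in TAC-THZ1. The drug groups were separate in both surgeries and in opposite order, with drug effects of 1.56 in sham and -1.96 in TAC and an interaction of -3.52 (SE 0.55, adjusted p = 0.00225). Pdk4, which keeps pyruvate out of the mitochondrion, moved the same way (1.05 in sham and -1.40 in TAC), but TAC-Veh replicate 1 stood at 35680 against 6821 to 9245 in the other 3, and the adjusted p was 0.0325. Its call held in 8 of 16 analyses that left out 1 library and was lost without Sham-Veh 3 or 4, Sham-THZ1 1, 2 or 4, or TAC-THZ1 1, 3 or 4 (adjusted p up to 0.0703).

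The same crossing was smaller but tighter for 4 other genes. Ell2, a subunit of the super elongation complex of RNA polymerase II, rose from 394, 404, 405 and 404 in Sham-Veh to 440, 451, 439 and 475 in Sham-THZ1, and fell from 624, 630, 675 and 626 in TAC-Veh to 514, 452, 482 and 441 in TAC-THZ1. No group pair of one surgery overlapped, and the interaction was -0.60 (SE 0.09, adjusted p = 0.00206). Srxn1, which repairs oxidized peroxiredoxins, rose from 566 to 635 in Sham-Veh to 696 to 849 in Sham-THZ1, and fell from 882 to 994 in TAC-Veh to 692 to 773 in TAC-THZ1. Wnt9a, a Wnt ligand, went from 151 to 154 up to 166 to 187 in sham, and from 207 to 225 down to 142 to 152 in TAC. Grk5, a kinase that desensitizes beta-adrenergic receptors, went from 626 to 664 up to 743 to 885 in sham, and from 863 to 1367 down to 588 to 751 in TAC. Their interactions were -0.71 (SE 0.10), -0.73 (SE 0.10) and -1.11 (SE 0.16). These 6 genes, Pdk4 aside, were named for opposite drug effects with a small unadjusted p, so the directions are a description. In limma their drug effects in sham had adjusted p values of 0.00667 for Nr4a3, 0.193 for Srxn1 and 0.346 for Angptl4. For Grk5, Wnt9a and Ell2 these were 0.622, 0.625 and 0.65. Only Nr4a3 thus passed in sham after adjustment.

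Immediate early genes as a list were more negative for 7 of 29 genes and more positive for none, with a median interaction of -0.76. The shares of all genes were 5.62% and 4.40%. The list had a median drug effect of 0.34 in sham and -0.37 in TAC. In sham 5 members rose at an unadjusted p under 0.05 and none fell, beside 448 and 469 of all 13331 genes. Atf3, a stress-induced repressor, had 54 to 90 in Sham-Veh, 102 to 137 in Sham-THZ1, 652, 442, 229 and 193 in TAC-Veh, and 121, 78, 149 and 151 in TAC-THZ1. The interaction of Atf3 was -2.24 (SE 0.44, adjusted p = 0.00715). Egr2 was at -3.04 and Arc at -1.89, with low counts. The 15 glucocorticoid response genes, which hold Angptl4 and Pdk4, had medians of 0.51 in sham and -0.26 in TAC, and 2 were called more negative, among them Pdk4. The count was 5 without TAC-Veh replicate 3, and 1 without Sham-Veh replicate 3 or 4, Sham-THZ1 replicate 1, 2 or 4, or TAC-THZ1 replicate 1, 3 or 4.

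**Figure D3:**
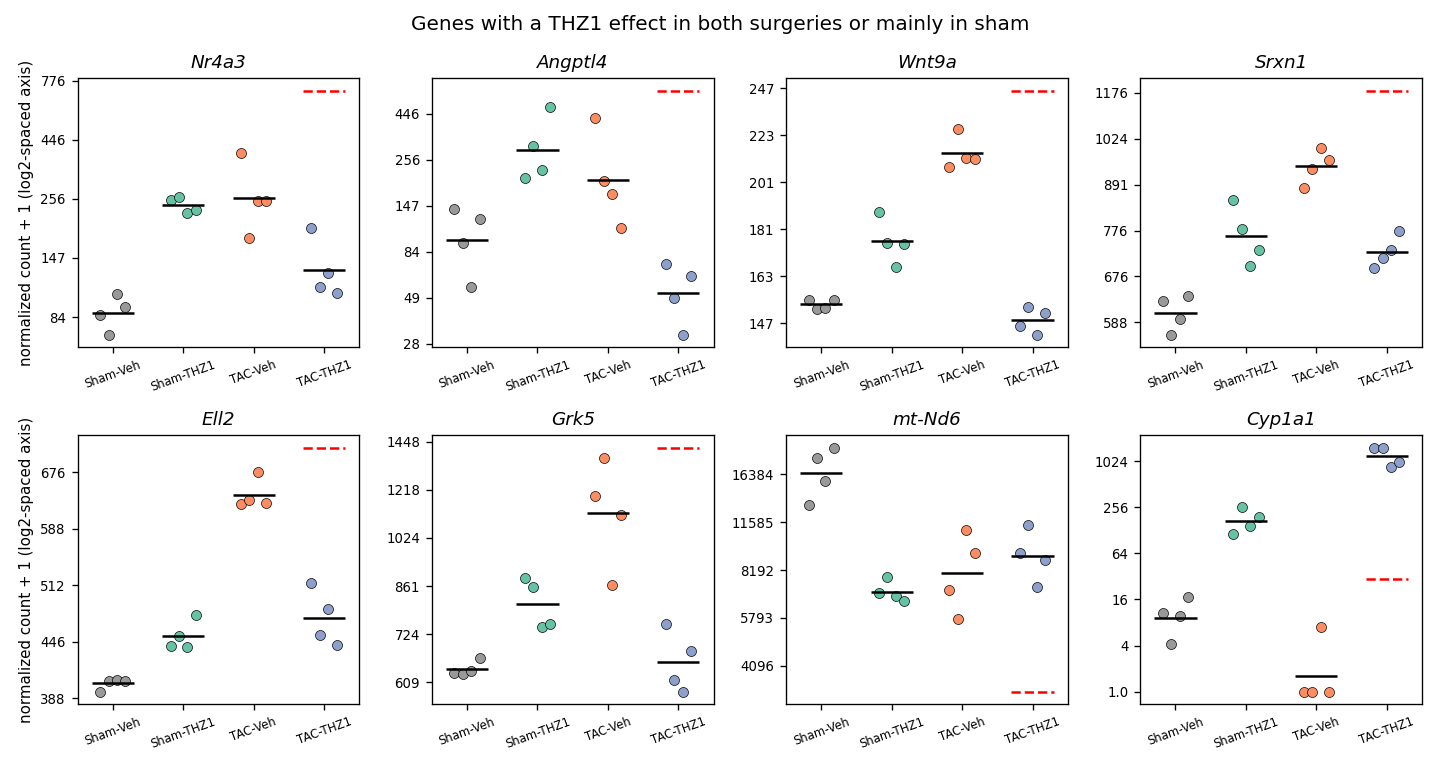
Normalized count + 1 of 8 genes in each heart on a log2-spaced axis, with means and expected levels drawn as black and red dashed bars as above. In the first 6 panels Sham-THZ1 lies above Sham-Veh and TAC-THZ1 below TAC-Veh, mt-Nd6 fell with THZ1 in sham hearts, and Cyp1a1 rose with THZ1 in both surgeries.

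The most positive interaction was that of Cyp1a1, a cytochrome P450 of the liver and lung induced through the aryl hydrocarbon receptor. Counts were 10, 3, 9 and 16 in Sham-Veh and 114, 256, 143 and 187 in Sham-THZ1. In TAC-Veh 3 hearts had none and 1 had 5.94 normalized counts, from 6 reads, and TAC-THZ1 hearts had 1541, 1528, 850 and 1006. THZ1 thus raised Cyp1a1 after both surgeries, without overlap, and every treated TAC heart was above every treated sham heart. The interaction of 5.34 (SE 0.76, adjusted p = 0.00206) takes its size in part from the near absence in TAC-Veh, and it ranged from 3.96 to 6.04 over the alternatives. Of 8 genes of the aryl hydrocarbon receptor list, only Ahrr, the repressor of that receptor, was also called, at 1.55 (SE 0.40, adjusted p = 0.0247), a call lost without Sham-Veh replicate 2 or 4 or Sham-THZ1 replicate 4. The share of all genes called more positive was 4.40%. The median interaction of the list was -0.03, and 4 of its 8 genes were below 0.

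For mt-Nd6, a mitochondrial gene of complex I and the only protein gene on the light strand, the interaction came from the sham hearts. Its counts were 13090, 18390, 15580 and 19880 in Sham-Veh, 6945, 7808, 6782 and 6524 in Sham-THZ1, 7084, 5734, 10940 and 9255 in TAC-Veh, and 9302, 11320, 7265 and 8839 in TAC-THZ1. Sham-Veh stood above all other hearts, and the other groups overlapped. The drug effect was -1.24 in sham and 0.18 in TAC (interaction 1.42, SE 0.25, adjusted p = 0.00393). The locus lies on the strand opposite to mt-Nd5, which was 75.9 times as abundant in mean count, and whether reads of that strand entered its counts was not tested. It was the 1 gene called by limma and by edgeR among the 12 mitochondrially encoded genes tested, of which DESeq2 called 3. Without TAC-Veh replicate 3 or TAC-THZ1 replicate 3, limma called 2. With all libraries, limma called 4.40% of all genes more positive.

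Genes with a positive interaction were mostly those that fell after TAC and were nearer to sham under THZ1. Lrrc4b, a synaptic adhesion protein, had 248, 375, 305 and 357 in Sham-Veh, 373, 295, 350 and 248 in Sham-THZ1, 41, 49, 83 and 65 in TAC-Veh, and 377, 355, 571 and 242 in TAC-THZ1. TAC-THZ1 overlapped both sham groups, and TAC-Veh was separate from all. Its interaction was 2.68 (SE 0.34, adjusted p = 0.00177). Gpr22, an orphan receptor of the heart and brain, had 1188 to 1689 in Sham-Veh, 1097 to 1519 in Sham-THZ1, 195, 206, 459 and 334 in TAC-Veh, and 818, 1362, 1150 and 1058 in TAC-THZ1, for an interaction of 2.25 (SE 0.32).

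Other large positive interactions were those of Clcn1 (2.58), a chloride channel, Cngb3 (2.53), a cyclic nucleotide-gated channel, Penk (2.37), the precursor of enkephalins, and Efnb3 (1.76), an ephrin ligand. The call of Penk was lost without Sham-Veh replicate 2, Sham-THZ1 replicate 4 or TAC-THZ1 replicate 2 (adjusted p up to 0.0575). Fam174b and Asb10 moved less, at 0.81 and 0.74, with small standard errors of 0.12 and 0.11.

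Potassium channels were more positive in TAC for 8 of 19 genes and more negative for none, with a median of 0.55. The shares of all genes were 4.40% and 5.62%. Kcnj3 and Kcnj5, which form the acetylcholine-activated channel of the heart, had interactions of 1.47 (SE 0.29) and 1.37 (SE 0.29). Kcnj3 measured 312, 315, 690 and 608 in TAC-Veh and 958, 1465, 1122 and 1123 in TAC-THZ1, beside 1764 to 2217 over the sham hearts, so treated TAC hearts lay between the groups. Kcnq1, the pore of the slow delayed rectifier, was at 0.55. Without Sham-Veh replicate 2 or 4, or TAC-THZ1 replicate 2, 5 potassium channels were called. Among 19 calcium handling genes 4 were more positive and none was more negative. Pln, the inhibitor of the calcium pump of the sarcoplasmic reticulum, had 83450, 65740, 106300 and 93810 in TAC-Veh and 137700, 159500, 114300 and 138300 in TAC-THZ1, and 145600 to 163300 over the sham hearts, with an interaction of 0.70 (SE 0.19, adjusted p = 0.0327). The T-type channel gene Cacna1h was at 1.23. The calcium count was 1 or 2 without Sham-Veh replicate 2, 3 or 4, any Sham-THZ1 library, TAC-Veh replicate 2 or TAC-THZ1 replicate 2 or 4, and Pln lost its call in 9 of the 16 omissions (adjusted p up to 0.0704).

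Interactions of energy metabolism genes were small and mostly above 0. All 35 nuclear genes of the respiratory chain had an interaction above 0, with a median of 0.38, but 3 of them (Sdha, Sdhc and Ndufs7) passed the test. Of 25 fatty acid oxidation genes, 23 were above 0, the median was 0.36, and 4 were called (Acaa2, Ech1, Eci1 and Etfb). Of all genes 47.7% had an interaction below 0, and 4.40% were called more positive. Genes of a list were measured in the same hearts, so their signs are not independent. Both lists fell with TAC under vehicle, for 21 of 35 and 22 of 25 genes, beside 23.6% of all genes. Acaa2, the thiolase of the last step of beta-oxidation, had 16420, 16330, 15130 and 16490 in Sham-Veh, 17610, 16820, 17430 and 18680 in Sham-THZ1, 6062, 4373, 9291 and 6089 in TAC-Veh, and 10560, 15290, 11330 and 12050 in TAC-THZ1. Every treated TAC heart was above every TAC-Veh heart, and replicate 2 alone reached the range of the sham hearts. The interaction was 0.84 (SE 0.23, adjusted p = 0.0289). These counts hung on single hearts. The respiratory chain gave 23 calls without TAC-Veh replicate 3, 21 without TAC-Veh replicate 1, 6 without TAC-THZ1 replicate 3, and 0 or 1 without any one of the sham libraries, TAC-Veh replicate 2 or TAC-THZ1 replicate 2 or 4. Fatty acid oxidation gave 14 without TAC-Veh replicate 3, 0 without TAC-THZ1 replicate 2, and 1 or 2 without Sham-Veh replicate 2 or 4 or any Sham-THZ1 library. Slc2a4, the insulin-responsive glucose transporter, was at 0.61 (SE 0.12), with 8931 to 9787 in TAC-THZ1 inside the range of the sham hearts and 4914 to 7191 in TAC-Veh. 

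**Figure D4:**
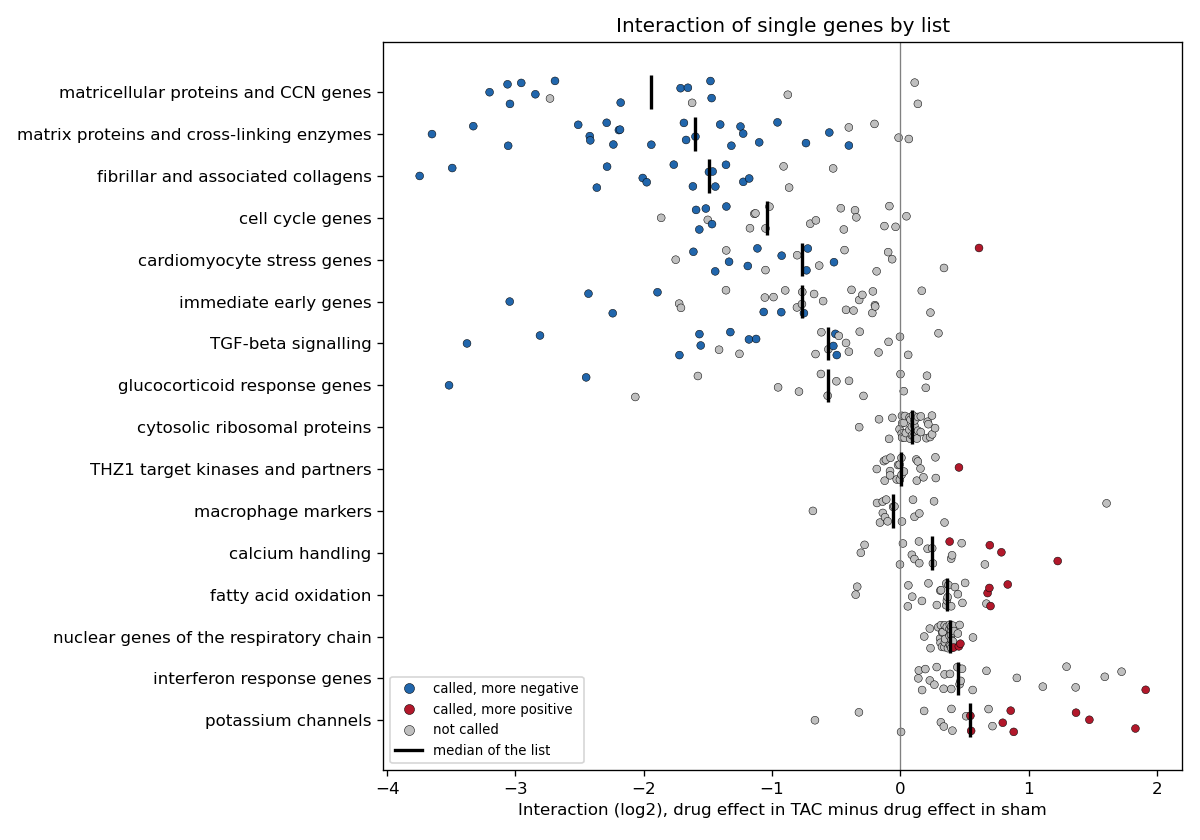
Interaction (log2) of each gene tested in 16 lists, with called genes in blue (more negative in TAC) or red (more positive) and the list median as a black bar. Matrix and matricellular genes reach below -3, respiratory chain genes form a tight cluster near 0.38 with 3 calls, and ribosomal protein genes lie near 0.

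Other groups were read beside the 5.62% and 4.40% of all genes called. Of 21 sarcomere genes 1 was more negative and 2 were more positive, and no sarcomere gene was called without Sham-Veh replicate 2 or 3, Sham-THZ1 replicate 1 or 2, or TAC-THZ1 replicate 2. The positive count was 4 without TAC-Veh replicate 1. None of 35 cytosolic ribosomal protein genes was called, and their median was 0.09. They responded to TAC after either injection. Under vehicle 27 were called higher, beside 21.4% of all genes, and under THZ1 34, beside 11.4%. None of 19 DNA repair genes was called, a group known to depend on Cdk12, and none of 17 macrophage markers. At an unadjusted p under 0.05 in limma these lists held 0, 2 and 1 genes, and DESeq2 and edgeR called 0 in each. Of 22 genes for the kinases that THZ1 binds and their partners, 1 was called, the cyclin gene Ccnh at 0.46 (SE 0.11). DESeq2 called 3 of the 22, edgeR 1, and limma 3 without TAC-THZ1 replicate 1 and 2 without Sham-Veh replicate 4, Sham-THZ1 replicate 4 or TAC-Veh replicate 3 or 4. Cdk7 was at 0.28 (95% confidence interval 0.09 to 0.47, adjusted p = 0.0576) and was called by DESeq2 and without Sham-THZ1 replicate 4, TAC-Veh replicate 4 or TAC-THZ1 replicate 1, with Cdk12 at -0.18 (-0.45 to 0.09) and Cdk13 at 0.01 (-0.17 to 0.19). For the last 3 genes a difference of drug effects of 2-fold lay outside the interval. Of 24 interferon response genes all had an interaction above 0, where 47.7% of all genes were below 0. The median of the list was 0.45, from median drug effects of -0.34 in sham and 0.21 in TAC. In limma 1 was called, the chemokine gene Cxcl9 at 1.91 (SE 0.45), and 2 were called without TAC-Veh replicate 4, TAC-THZ1 replicate 2 or TAC-THZ1 replicate 4. Cxcl9 had 245, 191, 211 and 171 in Sham-Veh, 124, 113, 123 and 78 in Sham-THZ1, 61, 114, 88 and 136 in TAC-Veh, and 284, 108, 346 and 132 in TAC-THZ1. The drug groups were separate in sham, where treated hearts were lower, and overlapped in TAC, where treated hearts were higher on average.

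Markers of other cell types were measured beside these results, where 5.62% of all genes were called more negative and 4.40% more positive. Of 16 endothelial markers 2 were more negative, Cldn5 at -1.14 and Pecam1 at -0.52 (a call held in 4 of the 16 omissions), with summed levels of 51760 to 59160 over the sham hearts, 49790 to 75810 in TAC-Veh and 41600 to 52460 in TAC-THZ1. Of 13 neutrophil markers 6 passed the filter and none was called in limma (1 at an unadjusted p under 0.05, and 1 each in DESeq2 and edgeR), and their summed level was 65.8 to 634 over the sham hearts, 141 to 307 in TAC-Veh and 256 to 8613 in TAC-THZ1. S100a8, a neutrophil calprotectin subunit, had 2840, 321, 1048 and 56 in TAC-THZ1, which was high in replicates 1 and 3, and Retnlg had 450, 46, 166 and 11. The Nppa-containing atrial list was split, with 2 of 9 more negative and 2 more positive. The part of cell composition in the results above was not tested.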

How the data were processed

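Poly(A)-selected RNA of 16 mouse ventricles, 4 per group, was sequenced on a stranded kit. Per the labels and the methods of the study, the authors aligned single-end reads with TopHat2 2.1.1 to mm9, counted them per GENCODE gene with htseq-count (reverse stranded), and divided counts by DESeq2 size factors over all mouse libraries. The deposited signal is this normalized count. Whole reads were recovered for 100% of values (tolerance 0.01 read), with 21.4 to 35.8 M reads per library, which sets the counting error only. Because such values are not raw counts, limma (3.58.1, R 4.3.3) gave the main test, fitted to log2(normalized count + 1) with 1 mean per group, eBayes with a trend, two-sided p and Benjamini-Hochberg adjustment. DESeq2 1.42.0 and edgeR 4.0.16 on the recovered reads were alternatives, with other pseudocounts, filters, scalings, scales, weights, thresholds, a replicate block, and each library left out. Leaving out 2 libraries together was chosen after seeing the data.

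The comparison, the 38 gene lists and the rule for named genes were chosen with earlier results of these data known. Named were the 12 largest called interactions each way and the 5 smallest p each way (mean of at least 100 counts), 6 genes with opposite drug effects (p under 0.05 in each surgery), up to 4 called members per list by p (2 where none was called), and a fixed panel; some are left out, and 1 is not reported here. Other names were chosen after their values were seen. Replicates are different mice, whose chi-square per degree of freedom within a group was 2.97 to 93.5. The labels gave no batch, so batches could not be compared. In simulated data on 13331 genes with 200 changed interactions, limma called 84% of 2-fold and 95% of 4-fold changes, with 5.79% of calls false. The false share of calls was 5.29% in edgeR and 12% in DESeq2. The simulation gave each gene the same spread in all groups and drew genes independently. In the data TAC hearts spread more than sham hearts, so these shares may not hold for them. Promoter windows were RefSeq's (GRCm38.p6), and gene positions were taken from GENCODE on NCBIM37. Figures were drawn with Matplotlib 3.10.9 in Python 3.11.15.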

Additional observations from a re-analysis of the deposited data

Results flagged for a closer look

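Drug effects differed between TAC and sham, by the test of the interaction, for 749 genes in the negative and 587 in the positive direction. Among named genes the drug effects pointed in opposite directions for Nr4a3 (interaction -2.43), Wnt9a (-0.73), Srxn1 (-0.71), Ell2 (-0.60), Grk5 (-1.11) and Angptl4 (-3.52). Of these, only the drug effect of Nr4a3 passed in sham after adjustment.

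Single hearts stood apart from the other 3 of their group in 28 of 352 group values of the named genes, by a gap, as a share of the group's range, above Dixon's 95% limit for 4 samples. Chance alone gives about 1 in 20 such groups. In TAC-Veh these were replicate 1 for Pdk4 (35680), replicate 2 for Xirp2 (92830) and Ccna2 (152), and replicate 3 for Ell2 (675) and Cyp1a1 (5.94, the others at 0). In TAC-THZ1 they were replicate 4 for Ctgf (4159), Xirp2 (36580), Arc (90.1) and Cldn5 (262), and replicate 2 for Ndufs7 (7830). In Sham-Veh replicate 1 was high for Thbs4 (128), Col8a1 (1009), Ltbp2 (187) and Arc (76.4) and low for Ell2 (393.5) and Slc2a4 (8777), replicate 2 was high for Penk (240.6), replicate 3 was low for Acaa2 (15130), and replicate 4 was high for Grk5 (664). In Sham-THZ1 replicate 2 was high for Agtr1a (907), Myh7 (2379), Etfb (11380) and S100a8 (125), replicate 3 for Gpr22 (1519) and Hlf (972), and replicate 4 for Col4a1 (15350), Gab2 (859) and Uck2 (535).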

How the results depend on the processing

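Counts of genes with a more negative and a more positive drug effect in TAC were within 1.5 times of 749 and 587 for pseudocounts of 0.5 and 5, other filters on low counts, upper quartile, TMM and quantile scaling, a square root scale, eBayes without trend or robust, weights per group, DESeq2 (984 and 853) and edgeR (727 and 584). Exceptions were weights per library (911 positive, 921 negative), an adjusted p under 0.01 (198 and 65) and an absolute interaction of at least 1 (292 and 127). Leaving out each library in turn gave 444 to 1236 and 246 to 1243 genes, and leaving out TAC-Veh replicate 3 with TAC-THZ1 replicate 2 (chosen after seeing the data) gave 970 and 934, with 708 and 543 genes shared with those first called. With the replicate block they were 663 and 471. The labels do not say whether replicate numbers pair the hearts. Same-numbered deviations from group means correlated at -0.431 to 0.164, which cannot settle this, so the block stands for no known shared source. The median drug effect in sham of genes called lower with THZ1 in TAC moved from -0.01 to 0.00074 with weights per library and to -0.00041 with weights per group, and ranged from -0.024 to 0.0020 without 1 library, above 0 only without Sham-Veh replicate 1. For genes called higher the range was 0.017 to 0.040. The cause of these shifts was not tested. Of 79 called genes named here, 61 stayed called under all 32 other fits, in which the thresholds on p and size were kept. Cdk13, not called, ranged from -0.022 to 0.044 without 1 library and was at -0.032 without TAC-Veh replicate 3 and TAC-THZ1 replicate 2. Depth limits genes of few reads, such as Cyp1a1 in TAC-Veh, and 4 hearts per group limit genes whose spread is wide.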

Other observations

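Circadian clock genes moved in both directions. Of 18 tested, 5 were more positive in TAC (Hlf, Nr1d2, Tef, Per2 and Per3) and 3 more negative (Bhlhe40, Clock and Arntl). The shares of all genes were 4.40% and 5.62%, and the median interaction of the list was 0.03. Hlf, an output transcription factor of the clock, had 247, 335, 546 and 494 normalized counts in TAC-Veh and 544, 864, 637 and 685 in TAC-THZ1, beside 866 to 1267 in Sham-Veh and 686 to 972 in Sham-THZ1, for an interaction of 1.19. Nr1d2 was at 0.47, Tef at 0.62 and Bhlhe40, a repressor that responds to light and hypoxia, at -0.68. These calls were thin, since without TAC-THZ1 replicate 2 or Sham-Veh replicate 2 none of the 18 was called in either direction. The time of day at which hearts were collected was not used here.

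Further lists are given beside the 5.62% of all genes called more negative and 4.40% called more positive. More negative and more positive genes numbered 2 and 5 of 23 for glucose transport and glycolysis, 2 and 1 of 26 for heat shock and the unfolded protein response, 2 and 0 of 20 for calcineurin and MAP kinase feedback, 0 and 1 of 14 for metabolic regulators, and 1 and 0 of 31 for proteasome subunits. For markers of pericytes and smooth muscle they were 2 and 2 of 13, and for Schwann cells 1 and 1 of 7. These small counts moved with single libraries. For glucose transport and glycolysis the positive count was 1 without any one of Sham-Veh replicates 2 to 4 or of the 4 Sham-THZ1 libraries. For calcineurin and MAP kinase feedback the negative count was 6 without TAC-Veh replicate 3, and for metabolic regulators the positive count was 3 without TAC-Veh replicate 3 or 4 and 0 without any one sham library. For pericytes and smooth muscle the negative count was 0 without Sham-Veh replicate 2 or 3, Sham-THZ1 replicate 1, 2 or 4, or TAC-THZ1 replicate 2. Neither Schwann cell gene was called without Sham-Veh replicate 2, among others. For heat shock genes the negative count was 4 without TAC-Veh replicate 1 and the positive count 3 without TAC-Veh replicate 3, and the proteasome gene lost its call in 10 of the 16 fits that left out 1 library. None was called in limma among 5 lymphocyte, 8 erythroid, 7 epicardial and 3 adipocyte markers that passed the filter, with 0, 1, 1 and 0 at an unadjusted p under 0.05. DESeq2 called 1 erythroid and 1 epicardial gene, and edgeR called 0 in all 4 lists.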
